A study of Mus musculus with 36 samples.

Results

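Complex I of the respiratory chain was followed through every gene of the count table whose symbol begins with Nduf. These are 47 genes of 14761, and they were measured in all 36 RNA-seq libraries of a study of mouse embryonic fibroblasts (MEFs) that lack Mfn1 or Mfn2, the genes of the mitofusins, GTPases that fuse outer mitochondrial membranes. Of the 47 genes, 37 were counted as subunits of the complex (Ndufa, Ndufb, Ndufc, Ndufs and Ndufv symbols) and 8 as assembly factors (Ndufaf symbols). Ndufb1-ps is among the 37, although GENCODE vM21 lists it as a long non-coding RNA of a bidirectional promoter. The remaining pair, Ndufa4 and Ndufa4l2, carry the name but not the role: Ndufa4 is a subunit of cytochrome c oxidase, and Ndufa4l2 is a paralog that hypoxia induces. There are 12 groups with 3 libraries each. The Mfn1-/- line and its WT (libraries A to C) were sampled 4 times during adipogenic differentiation, on day -2, on day 0, on day +3 and on day +8. The Mfn2-/- line and a further WT set (libraries D to F) were sampled on day -2 and day +8 alone. Confluence was reached at day -2, and day 0 marks the start of an adipogenic cocktail that all lines received alike, with pantothenic acid, biotin, rosiglitazone, IBMX, dexamethasone and insulin. Each genotype is 1 cell line from a cell bank and the lines derive from different mice, so that an effect of the knockout cannot be told apart from a difference between lines, and p-values measure the spread between libraries, which may be technical.

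Complex I (NADH:ubiquinone oxidoreductase) takes electrons from NADH, passes them to ubiquinone and pumps protons across the inner mitochondrial membrane. Its core subunits carry out the chemistry, those of the N module oxidising NADH and those of the Q module reducing ubiquinone, while the proton pumps of the membrane arm are encoded by mitochondrial DNA (mt-Nd genes). Accessory subunits surround this core, and the assembly factors join the modules and then leave. Fat cells are known to enlarge their mitochondrial content as they mature.

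Values are normalized counts, that is, reads per gene divided by 1 factor per library. Libraries held between 8800674 and 37011894 reads (median 12641490). All 47 genes reached 10 normalized counts in 3 or more libraries, the filter that 14293 genes passed in all, and fold changes are on the log2(value + 1) scale. A gene passed the test at an adjusted p (limma, Benjamini-Hochberg over the 14293 genes) under 0.01. The targeted RNA stood at 12.8% of WT in Mfn1-/- MEFs at day -2, 24.3% at day 0 and 18.8% at day +3, but at 99.0% at day +8, and the day +8 libraries are therefore called the libraries labelled Mfn1-/-. In those libraries 13 genes that were under 1% of WT in Mfn1-/- MEFs on each earlier day (WT mean at least 100 on all 4 days) were all still under 1% of WT. Mfn2 RNA stood at 24.0% of WT in Mfn2-/- MEFs at day -2 and 25.4% at day +8. The 9 of 10 listed fibroblast markers that were measured summed to between 84222 and 817369.9 normalized counts in every library. Single markers differed widely within these sums. Col1a2 stood at 81.8 to 303 in Mfn2-/- libraries against 71042 to 122927 in WT D to F. At day -2 it stood at 13829 to 34852 in Mfn1-/- MEFs against 123959 to 186611 in WT A to C. Col3a1 went the other way there, at 61184 to 128019 against 32394 to 42979. Whether reads were counted by strand is not given in the sources used here, and 7 of the 47 genes have more than 10% of their exon length under a gene on the opposite strand (Ndufa2, Ndufa13, Ndufaf2, Ndufb1-ps, Ndufb5, Ndufb6 and Ndufb11).

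At day +8 the whole of nuclear-encoded complex I stood higher in the libraries labelled Mfn1-/- than in WT. All 37 subunits passed the test and all were higher, by a median log2 fold change of 1.70 (0.89 to 2.69), and 7 of 8 assembly factors were higher, by a median of 1.20 over the 8 (0.24 to 2.35). Of all genes tested, 23.5% were higher in this comparison and the median log2 fold change was -0.07. The summed level of the 37 subunits was 176562, 103396 and 85629 normalized counts in the labelled libraries A, B and C, against 33736, 32745 and 30490 in WT libraries A, B and C. Per 1000000 reads this was 11759, 7546 and 6562 subunit reads, against 2643, 2489 and 2410 in WT. In 45 of the 47 genes (all but Ndufaf2 and Ndufaf8) every labelled library lay above every WT library, a separation found in that direction in 27.5% of all genes. Library A was the highest of the 3 labelled libraries for 45 of the 47 genes, the exceptions being Ndufaf4 and Ndufa4l2. Without it the median over the 47 genes was 1.43 in place of 1.68, and 45 genes passed in place of 46. In bulk RNA, a change in the share of cells of a type and a change in RNA per cell cannot be told apart.

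**Figure D1:**
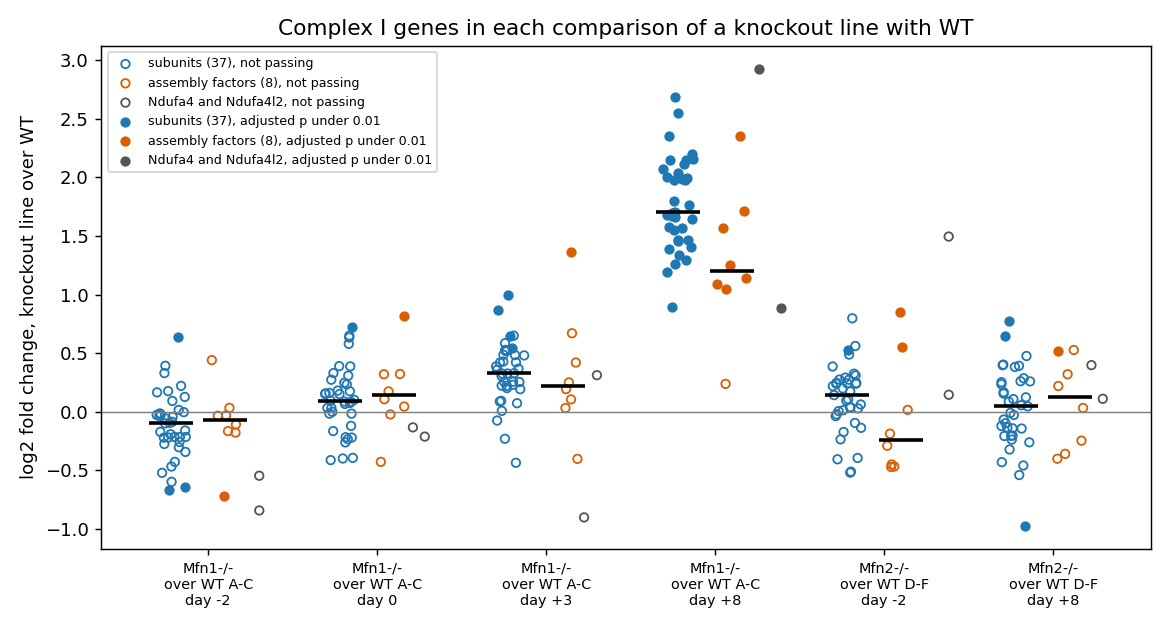
Log2 fold change of each of the 47 genes for each of 6 pairings of a knockout line and WT, with subunits, assembly factors and the Ndufa4 pair side by side. Filled points passed at an adjusted p under 0.01 and bars are medians. At day +8 all 37 subunits and 7 of 8 assembly factors stood above WT in the libraries labelled Mfn1-/-, and in the other comparisons most points were open and near 0.

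Ndufc2, an accessory subunit of the membrane arm (ENSMUSG00000030647, chromosome 7, 97400003 to 97407802 of GRCm38), had the largest rise among the subunits. It stood at 3597, 2158 and 1943 normalized counts in the labelled libraries, against 425, 371 and 357 in WT (log2 fold change 2.69, standard error 0.18, adjusted p = 2.49e-13). Every labelled library lay far above the highest WT library. Ndufv3, an accessory subunit of the N module (ENSMUSG00000024038, chromosome 17, 31520115 to 31531331 of GRCm38), stood at 9392, 4706 and 3425, against 1039, 882 and 813 in WT (log2 fold change 2.55, standard error 0.25, adjusted p = 8.95e-10). The labelled libraries were again all higher, with library A at the top and C the lowest. The next largest rise was that of Ndufa10, an accessory subunit of the membrane arm, at 10193, 5670.0 and 3543 against 1283, 1123 and 1053 in WT (log2 fold change 2.36, adjusted p = 1.04e-10). At the other end, Ndufa2, an N module subunit which shares 11.5% of its exon bases with Tmco6 on the opposite strand, stood at 3985, 1858 and 1962 against 1350.4, 1361 and 1229 (log2 fold change 0.89, adjusted p = 0.000284). This was the smallest rise of any subunit, and the groups still did not overlap.

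The 300 bases around the transcription start (250 before, 50 after) are shown for Ndufc2 and Ndufv3, the subunits that rose the most, and for Ndufs6, whose window holds 3 of the motifs searched. Sequences are those of RefSeq on GRCm38.p6, written in the direction of the gene, and capitals mark matches on either strand to 5 motifs: GCGCNNGCGC (NRF1), CCGGAAG (ETS factors), AAGATGGC (YY1), CCAAT (NF-Y) and AAGGTCA (ERR), none of which contains another.
Ndufc2 promoter, chr7:97399753-97400052 (plus strand): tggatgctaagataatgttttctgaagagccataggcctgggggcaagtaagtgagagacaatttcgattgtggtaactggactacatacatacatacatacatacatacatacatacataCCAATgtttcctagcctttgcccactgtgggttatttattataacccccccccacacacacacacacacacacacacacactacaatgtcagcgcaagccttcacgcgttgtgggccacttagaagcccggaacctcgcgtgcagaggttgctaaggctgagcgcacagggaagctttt
Ndufv3 promoter, chr17:31519865-31520164 (plus strand): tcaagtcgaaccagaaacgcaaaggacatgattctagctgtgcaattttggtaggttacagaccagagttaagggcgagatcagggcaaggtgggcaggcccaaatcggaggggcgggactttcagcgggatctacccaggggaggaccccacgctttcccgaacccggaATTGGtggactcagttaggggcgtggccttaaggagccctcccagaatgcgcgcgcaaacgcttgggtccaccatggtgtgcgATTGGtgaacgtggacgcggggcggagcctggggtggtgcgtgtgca
Ndufs6 promoter, chr13:73328433-73328732 (minus strand): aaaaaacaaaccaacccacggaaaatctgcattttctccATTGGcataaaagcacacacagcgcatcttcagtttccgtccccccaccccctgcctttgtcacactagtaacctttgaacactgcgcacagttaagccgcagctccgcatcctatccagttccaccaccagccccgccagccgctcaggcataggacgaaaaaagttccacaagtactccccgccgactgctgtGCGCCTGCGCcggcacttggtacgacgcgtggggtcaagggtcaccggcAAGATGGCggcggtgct
The Ndufs6 window holds an NRF1, a YY1 and a CCAAT match, while the windows of Ndufc2 and Ndufv3 hold only CCAAT matches. RefSeq promoters were matched for 33 of the 37 subunits and 7 of the 8 assembly factors, out of 10459 genes tested. For Ndufb1-ps the promoter used was that of RefSeq Ndufb1. The NRF1 motif was found for 9 of 33 subunits and 2 of 7 assembly factors (15.0% of all promoters) and the YY1 motif for 7 of 33 and 1 of 7 (5.17% of all). The ETS motif was found for 4 of 33 and 2 of 7 (19.8% of all), CCAAT for 10 of 33 and 4 of 7 (43.0%), and the ERR motif for 3 of 33 and 0 of 7 (3.74%). At day +8 the median log2 fold change in the labelled libraries was 1.66 for the 9 subunits with the NRF1 motif and 1.98 for the 24 without it, and 1.70 for the 7 with the YY1 motif and 1.78 for the 26 without it. It was 1.47 for the 3 with the ERR motif and 1.89 for the 30 without it. For the other motifs the order was the reverse, with 1.90 for the 10 with CCAAT and 1.70 for the 23 without it, and 2.07 for the 4 with the ETS motif and 1.70 for the 29 without it. These are descriptions of letters in a window and were not tested.

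By module, the 3 core subunits of the N module all rose at day +8, with a median of 2.04. Ndufv1, which binds FMN and NADH, stood at 14876, 8997 and 5496 against 2356, 2163 and 2065 in WT (log2 fold change 2.04, adjusted p = 1.6e-10). Ndufs1, which carries several iron-sulfur clusters, stood at 3943, 3463 and 2214 against 1264, 1292 and 992 (log2 fold change 1.41, adjusted p = 9.76e-09). In the Q module, Ndufs7, which carries the last iron-sulfur cluster before ubiquinone, stood at 6189, 2824 and 2213 against 979, 774 and 838 (log2 fold change 1.97, standard error 0.23, adjusted p = 2.51e-08). Its library A stood far above the other labelled libraries. The 30 accessory subunits rose by a median of 1.69, among them Ndufab1, the mitochondrial acyl carrier protein (log2 fold change 1.77, adjusted p = 1.23e-11), and Ndufs4, an N module subunit (log2 fold change 1.30, adjusted p = 9.46e-09). By symbol family the medians were 1.68 for 13 Ndufa, 1.98 for 11 Ndufb, 2.18 for 2 Ndufc, 1.57 for 8 Ndufs and 2.07 for 3 Ndufv genes.

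Assembly factors rose at day +8 as well, with a lower median and a wider range than the subunits. Ndufaf3, which works in the assembly of the Q module, was highest: 899, 608 and 347 in the labelled libraries, against 118, 116 and 102 in WT (log2 fold change 2.35, standard error 0.23, adjusted p = 4.56e-10). Its partner Ndufaf4 stood at 424, 467 and 361, against 176, 175 and 170.0 in WT (log2 fold change 1.25, adjusted p = 0.000641). Both were above WT in each labelled library. Ndufaf5, which hydroxylates Ndufs7, and Ndufaf6 rose by 1.57 and 1.71 on the log2 scale. Ndufaf1, a factor of the membrane arm, Ndufaf7, a methyltransferase, and Ndufaf8 rose by 1.14, 1.09 and 1.05. Ndufaf8 passed although its labelled library B (122) lay just under its WT library A (124). Ndufaf2, a factor of the last steps of assembly, did not pass: it stood at 317, 207 and 206, against 190.1, 235 and 185 in WT (log2 fold change 0.24, adjusted p = 0.233). Its groups overlap, and 65.6% of its exon length lies under B230220B15Rik on the opposite strand. In each labelled library the median log2 difference from WT was larger over subunits than over assembly factors, by 0.66 in A, 0.38 in B and 0.44 in C. In the 3 WT libraries of the day that margin was between 0.0028 and 0.0335. The margin is a description, since members of a class are not replicates.

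The pair outside complex I rose too. Ndufa4l2 stood at 94.2, 141 and 57.2 in the labelled libraries, against 19.9, 11.2 and 6 in WT (log2 fold change 2.93, standard error 0.54, adjusted p = 2.93e-05), on 245 reads in the labelled libraries and 43 in WT. Ndufa4 stood at 4603, 3041 and 3446, against 1923, 2073 and 1931 in WT (log2 fold change 0.88, adjusted p = 6.54e-05). The groups do not overlap for either gene. Of 10 other HIF target genes, which respond to low oxygen, 9 were higher at day +8 and 1 did not pass, and 5 of 10 regulators of mitochondrial biogenesis were higher, led by Esrra (2.37) and Ppargc1b (2.25, log2 fold changes). Of all genes tested, 23.5% were higher in this comparison. The part of either list in the complex I result was not tested.

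The rise at day +8 ran across the nuclear genes of the respiratory chain, in a comparison where 23.5% of all genes tested were higher. All 4 measured genes of complex II (median 1.88), 9 of complex III (2.24), 12 of complex IV (2.12) and 14 of complex V (1.55) were higher in the labelled libraries than in WT, as were 10 complex I assembly factors with other symbols (median 1.25). The 5 measured transcripts of mitochondrial DNA for complex I did not share that direction. Among them mt-Nd2 (4915, 7436 and 11487 against 11444, 12871 and 11296, log2 fold change -0.66, adjusted p = 0.00497) and mt-Nd5 (log2 fold change -0.74, adjusted p = 0.00263) were lower, the groups of both overlapping through library C, mt-Nd6 was higher (2.01), and mt-Nd1 (-0.32) and mt-Nd4 (-0.35) did not pass. mt-Nd6 lies on the other strand from the rest of the mt-Nd genes and was the only one of the 5 that was higher. It stood at 450, 215 and 372 against 81.5, 129 and 50.7 in WT, far below the other mt-Nd transcripts. WT libraries D to F at day +8 did not share this low level. There mt-Nd6 stood at 3602, 3304 and 3564, near mt-Nd4 at 3896, 3810 and 4184. The part of this difference between WT sets in the mt-Nd6 value was not tested. The adipocyte markers in the table (5 of 10 listed: Cebpa, Fabp4, Lpl, Pparg and Slc2a4) moved with complex I at day +8, all 5 passing as higher. Their summed level was 163794 to 185768 in the labelled libraries against 11157 to 14385 in WT, and the summed fibroblast markers were 152024 to 262010.1 against 309387 to 559248. Their part in the complex I result was not tested. On each earlier day 3 of the 5 adipocyte markers (Lpl, Pparg and Cebpa) passed as higher in Mfn1-/- MEFs. The 5 summed to 2668 to 6044 against 281 to 380.2 in WT at day -2 and 22827 to 31846 against 1908 to 2606 at day +3. Most of these sums in Mfn1-/- MEFs was Lpl, at 2110 to 5398 at day -2 and 20820 to 26662 at day +3. Fabp4 went the other way at first. It stood at 21.6 to 29.7 against 50.7 to 62.3 in WT at day -2, without passing. At day 0 it passed as lower, at 54.1 to 92.2 against 116 to 374, and at day +3 its groups overlapped. Of 6 mesothelial markers, 4 were higher and 1 was lower in the labelled libraries, with sums of 846 to 1463 against 585 to 908 in WT. Dio2, the 1 measured brown adipocyte marker, stood at 0 to 6.78 against 292 to 491. The 2 measured macrophage markers, mostly Cd68, summed to 149 to 242 against 32.6 to 41.6. The 3 measured epithelial markers summed to 36.2 to 58.2 against 10 to 14.5. Tnni1 of skeletal muscle stood at 42 to 144 against 0 to 2, and the endothelial marker Kdr overlapped. The part of these lists was not tested.

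**Figure D2:**
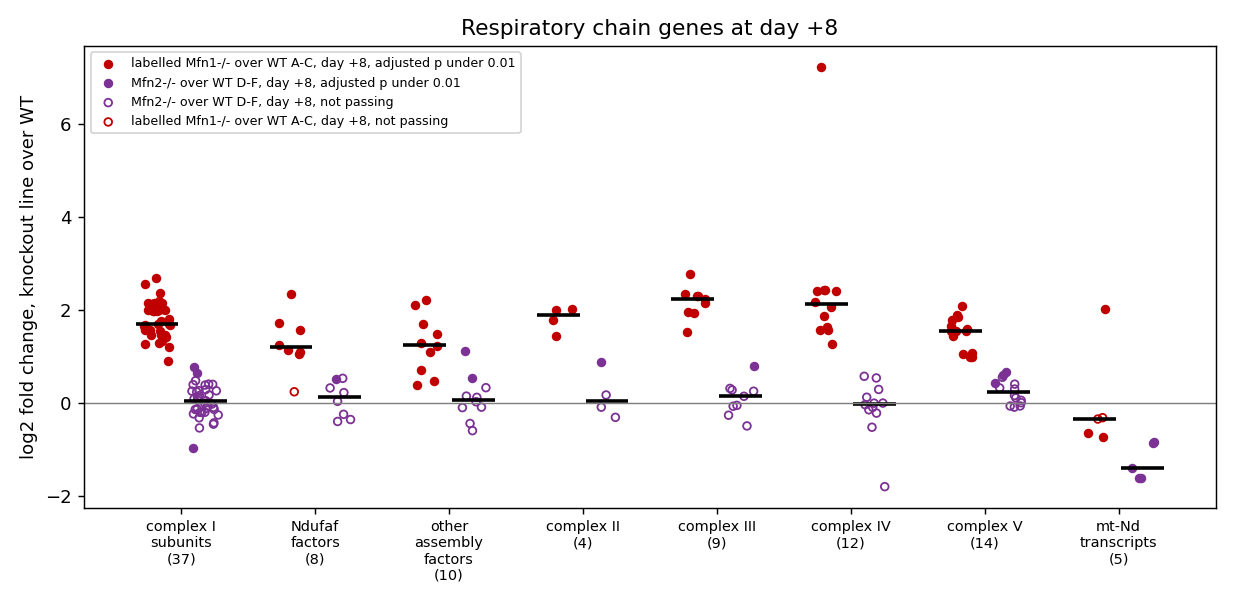
Log2 fold change at day +8 for genes of each respiratory complex, with the libraries labelled Mfn1-/- over WT A to C on the left and Mfn2-/- over WT D to F on the right of each pair. Filled points passed at an adjusted p under 0.01, bars are medians and genes per group are in brackets. The labelled libraries had medians of 1.55 to 2.24 for complexes I to V. Mfn2-/- medians for complexes II, III and V were 0.04, 0.14 and 0.23, and that of complex IV is not given here. The mt-Nd transcripts lay apart in both.

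Before day +8, few complex I genes differed between Mfn1-/- and WT MEFs. At day -2 a total of 4 of 47 passed, against 22.4% of all genes: Ndufc2 was higher, and Ndufa2, Ndufa12 and Ndufaf2 were lower. Ndufc2 stood at 755, 766 and 888 in Mfn1-/- MEFs, against 565, 513 and 466 in WT (log2 fold change 0.64, standard error 0.18, adjusted p = 0.00644). Every Mfn1-/- library was above every WT library. Ndufa12, the N module subunit that takes the place of Ndufaf2 late in assembly, stood at 458, 418 and 455, against 734, 749 and 603 in WT (log2 fold change -0.64, standard error 0.19, adjusted p = 0.00891). Ndufaf2 itself stood at 155, 159 and 156, against 278, 293 and 215 (log2 fold change -0.72, standard error 0.17, adjusted p = 0.00133), and Ndufa2 at 991, 1086 and 1244, against 1757, 1818 and 1703 (log2 fold change -0.67, standard error 0.20, adjusted p = 0.00889). For all 3 of these genes the Mfn1-/- libraries lay below the WT libraries. Without any 1 of the 6 libraries, 0 to 2 of the 47 genes passed. Ndufaf2 lost its call in 1 of 16 alternatives (adjusted p up to 0.0132), and Ndufa12, Ndufc2 and Ndufa2 lost theirs in 5, 6 and 7 of 16 (adjusted p up to 0.0421, 0.0378 and 0.044). Markers of other cell types differed on this day as well, and their part in these values was not tested. In Mfn1-/- MEFs 5 of 6 mesothelial markers were higher and 1 was lower, with sums of 2358 to 3999.8 against 2827 to 4600.4 in WT. The 3 measured epithelial markers summed to 294 to 737 against 19.9 to 45.7, and Tnni1, the 1 measured skeletal muscle marker, stood at 1179 to 1794 against 2.6 to 5.31. The median was -0.10 over subunits and -0.07 over assembly factors.

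At day 0, 2 of 47 genes passed, against 21.5% of all genes, both higher in Mfn1-/- MEFs. Ndufc2 stood at 965, 938 and 1039.9, against 640.0, 587 and 557 in WT (log2 fold change 0.72, adjusted p = 0.00239), and Ndufaf3 at 229.7, 261 and 243, against 143, 147 and 126 (log2 fold change 0.82, adjusted p = 0.00622). Groups did not overlap for either, but 0 or 1 gene passed without any 1 library. At day +3, 5 of 47 passed, against 21.5% of all genes, and all 5 were higher. Ndufaf3 (1.37), Ndufc2 (1.00), Ndufb7 (0.87), Ndufab1 (0.64) and Ndufs1 (0.55, log2 fold changes) were these. The medians were 0.33 over subunits and 0.22 over assembly factors, and 34 of 37 subunits had a positive value. Ndufaf3 stood at 425, 268 and 253, against 145, 135 and 84.2 in WT, and no group overlapped with WT for this gene on any of the 4 days, although it did not pass at day -2 (159.9, 159 and 155 against 135, 109 and 107 in WT). Library A was high in both lines at day +3: its subunits had a median log2 difference from WT of 0.73 in Mfn1-/- MEFs and 0.33 in WT, against 0.08 and 0.19 in Mfn1-/- libraries B and C and -0.32 and -0.02 in WT libraries B and C. The median over the 47 genes was 0.12 without Mfn1-/- library A (3 passing), 0.17 without WT library B (2 passing) and 0.47 without WT library A (7 passing). With only the 6 libraries of the day fitted, 0 of 47 passed at day +3.

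**Figure D3:**
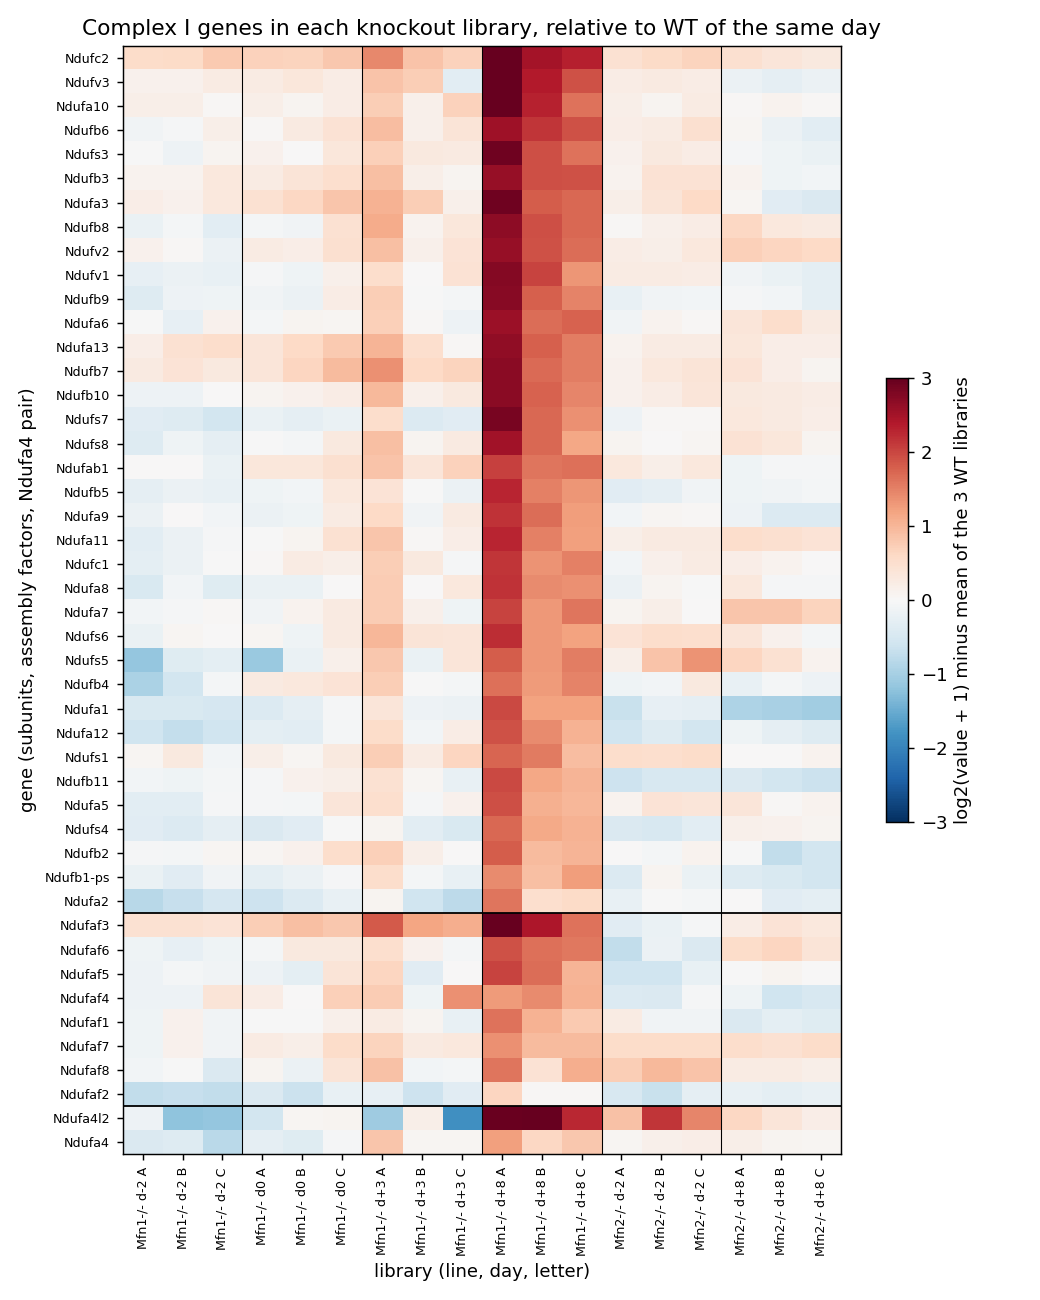
Difference of each knockout library from the mean of the 3 WT libraries of the same day and set, on the log2(value + 1) scale, for 46 genes in rows and 18 knockout libraries in columns. Rows run from the largest to the smallest rise at day +8 within subunits, assembly factors and the Ndufa4 pair, and colours are capped at 3 in size. The 3 columns labelled Mfn1-/- at day +8 are red in nearly every row, and Ndufc2 is red in all Mfn1-/- columns.

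Within lines, complex I genes stood higher late in the course of Mfn1-/- MEFs, whose day +8 values are those of the libraries labelled Mfn1-/-. Values between days were rescaled by TMM, since libraries of different days may have been scaled apart. Between day -2 and day 0 none of the 47 genes passed in Mfn1-/- MEFs, where 0.112% of all genes did (3 at an unadjusted p under 0.05, and 0 with edgeR or DESeq2). Between day 0 and day +3, 25 of 47 were higher at day +3, against 8.7% of all genes. These were 23 subunits, 1 assembly factor (Ndufaf6) and Ndufa4, and the median over subunits was 0.72 (0.34 to 1.07). Between day +3 and day +8, 42 were higher at day +8, against 17.4% of all genes, 36 subunits and 5 assembly factors among them, and the median over subunits was 1.14. Over the whole course, all 47 were higher at day +8 than at day -2 (37 subunits, 8 assembly factors and both others), against 20.8% of all genes, with medians of 1.93 over subunits and 1.50 over assembly factors. The step to day +3 is the least firm. On the authors' scale, on which the median of all genes moved by -0.39 between these days, 1 gene passed (median over the 47 genes 0.29 in place of 0.71), with only the 6 libraries of the step none did, and without Mfn1-/- library A at day +3 it was 6. The step to day +8 gave 10 calls with only its 6 libraries.

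In WT libraries A to C the subunit medians at day +3 lay above those of day 0, most in library A. At day +8 they lay near WT at day -2. Relative to WT at day -2, their subunit medians were -0.18, -0.23 and -0.18 at day 0 (libraries A, B and C). They were 0.64, -0.04 and 0.24 at day +3, and -0.01, -0.03 and -0.13 at day +8. None of the 47 genes passed between day -2 and day 0 (2.81% of all genes, 6 of the 47 at an unadjusted p under 0.05, and 0 with edgeR or DESeq2). Between day 0 and day +3, 5 were higher at day +3: Ndufa5, Ndufb11, Ndufs4, Ndufv2 and Ndufaf6. Of 14293 genes, 574 were higher in this step, and 11.3% passed in either direction. This count was 16 without WT library B at day +3, 0 without library A and 0 on the authors' scale. Between day +3 and day +8, 1 was lower at day +8 (Ndufs4, 6.17% of all genes passed). Between day -2 and day +8, 1 of 47 passed, as lower at day +8, where 15.3% of all genes passed, and the median over subunits was -0.05. That count was 0 without any 1 of the 6 libraries and 0 with edgeR. In WT libraries D to F, 7 of 47 were higher at day +8 than at day -2, where 1830 of 14293 genes were. Of all genes, 25.3% passed in either direction. The 7 were Ndufa1, Ndufa3, Ndufb3, Ndufb6, Ndufb10, Ndufv3 and Ndufa4l2, and the median over subunits was 0.36. In Mfn2-/- MEFs, 5 of 47 were higher at day +8, where 1362 of 14293 genes were, and 17.6% passed in either direction. The 5 were Ndufa6, Ndufa7, Ndufb10, Ndufs4 and Ndufaf3, and the median over subunits was also 0.36. With only the 6 libraries of the line fitted, 25 passed in each of these lines (23 higher and 2 lower in Mfn2-/-, 25 higher in WT D to F). Shares of all genes under these fits are not given here, so that the counts cannot be set against them.

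**Figure D4:**
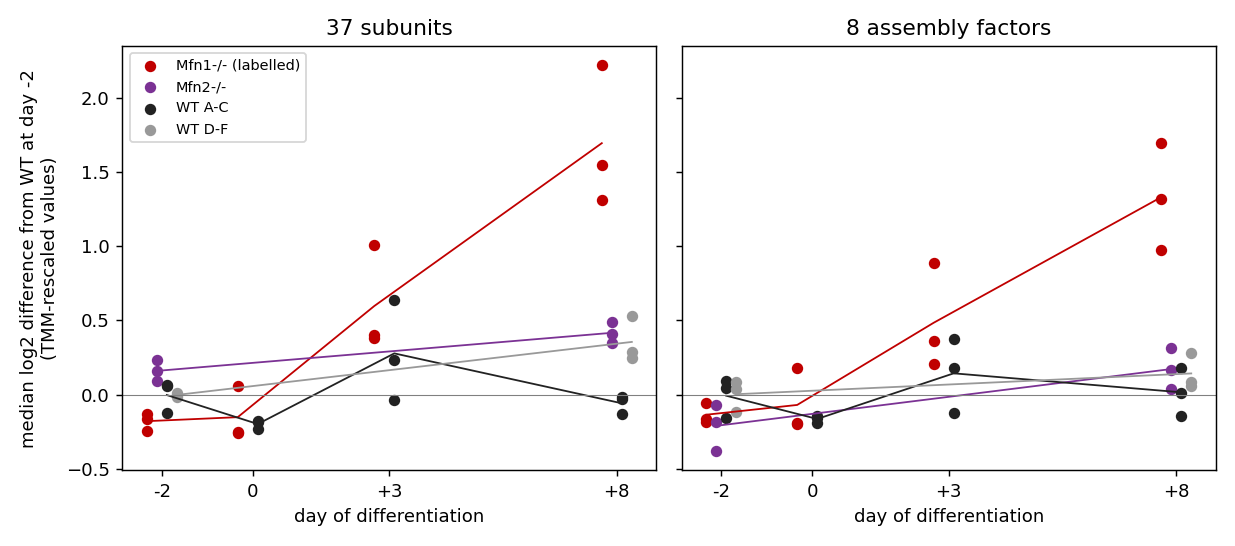
Median log2 difference of each library from the mean of WT at day -2 of the same set, over 37 subunits (left) and 8 assembly factors (right), by day of differentiation, on TMM-rescaled values. Points are libraries and lines join group means. Over subunits, the libraries labelled Mfn1-/- stand at 1.31 to 2.22 at day +8, against -0.13 to -0.01 in WT A to C.

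The difference in response was tested directly, with the labelled libraries as day +8 of Mfn1-/- MEFs. The change between day -2 and day +8 was larger in Mfn1-/- than in WT MEFs for 46 of 47 genes, against 12.0% of all genes: all 37 subunits (median difference 1.93, 1.27 to 2.40), 7 assembly factors (median 1.22 over the 8) and the other pair. Ndufaf4 alone did not pass. Ndufs7 had the largest difference of any subunit (2.40 on the log2 scale, standard error 0.33, adjusted p = 1.8e-06). It stood at 880.0, 850.4 and 759.8 in Mfn1-/- MEFs at day -2, against 1215, 1209 and 947 in WT, below WT in every library though without passing the test on that day. Ndufv3 followed (2.39 on the log2 scale, standard error 0.36, adjusted p = 5.88e-06), with 886, 891 and 962 in Mfn1-/- MEFs at day -2, against 781, 822 and 841 in WT. Ndufa4l2 had a larger fitted difference (3.77 on the log2 scale, standard error 0.77, adjusted p = 0.000271), but this size rests on 5 reads in Mfn1-/- MEFs at day -2. The same test in Mfn2-/- MEFs called none of the 47 genes, against 15.5% of all genes (6 of the 47 at an unadjusted p under 0.05, 0 with edgeR and 0 with DESeq2). The median over subunits was -0.11, and with only the 12 libraries of that comparison 11 passed, 4 higher and 7 lower (share of all genes under this fit not given).

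In Mfn2-/- MEFs, few complex I genes passed on either day in the shared model of 12 groups. At day -2, 3 of 47 passed, against 35.5% of all genes, all higher: Ndufaf8, Ndufaf7 and Ndufs1. Ndufaf8, which works with Ndufaf5, stood at 288, 337 and 310.3 in Mfn2-/- MEFs, against 143, 198 and 179 in WT (log2 fold change 0.85, standard error 0.25, adjusted p = 0.00581). Ndufaf7 stood at 402, 401 and 397, against 305, 265 and 252 (log2 fold change 0.55, standard error 0.15, adjusted p = 0.00304), and Ndufs1 at 1660.2, 1619 and 1679.9, against 1157, 1219 and 1073 (log2 fold change 0.53, standard error 0.16, adjusted p = 0.00771). All 3 were above WT in each library, but leaving out 1 library ended the call in 4 of 6 cases for Ndufaf7, 5 of 6 for Ndufaf8 and 6 of 6 for Ndufs1 (adjusted p up to 0.02, 0.0404 and 0.0362). Mesothelial markers summed to 32533 to 36342 in these Mfn2-/- libraries against 1309.8 to 1370.4 in WT, and fibroblast markers to 90547 to 96744 against 200497 to 218464. Epithelial markers summed to 439.9 to 492 against 26.3 to 38.9, and the 1 measured endothelial marker stood at 681 to 689.6 against 0 to 2.92. Their part in these values was not tested. The median was 0.14 over subunits and -0.24 over assembly factors, and 24 genes passed with only the 6 libraries of that day fitted (17 higher and 7 lower, against 56.1% of all genes). In the shared model, genes whose groups did not overlap could fail to pass. Ndufb11 stood at 581, 643 and 645 against 876, 905 and 900 in WT. Ndufc2 stood at 436, 473 and 504 against 318, 319 and 318.

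At day +8, 4 of 47 passed in Mfn2-/- MEFs, against 38.1% of all genes. Ndufa1, an X-linked accessory subunit needed to build the membrane arm (ENSMUSG00000016427, chromosome X, 37187588 to 37191163 of GRCm38), was lower at 293, 283 and 269.7, against 527, 483 and 674 in WT (log2 fold change -0.98, standard error 0.18, adjusted p = 3.74e-05). It was the 1 member called lower, and its groups did not overlap. Ndufa7, an N module subunit, was higher at 1469, 1466 and 1302, against 784, 817 and 874 (log2 fold change 0.77, standard error 0.18, adjusted p = 0.00055). Ndufv2, a core subunit of the N module, stood at 1556, 1478 and 1437, against 894, 884 and 1084 (log2 fold change 0.65, standard error 0.18, adjusted p = 0.00386). Ndufaf7 again stood above WT, at 457, 435 and 463 against 296, 284 and 371 (log2 fold change 0.52, standard error 0.15, adjusted p = 0.00475). For Ndufa7, Ndufv2 and Ndufaf7 each Mfn2-/- library lay above all WT libraries. The call for Ndufa1 was lost when both WT sets of day +8 served as controls after TMM (adjusted p = 0.0154), and those for Ndufv2 and Ndufaf7 ended without several single libraries (adjusted p up to 0.02 and 0.0327). The median was 0.04 over subunits and 0.12 over assembly factors, and with only the 6 libraries of the day 16 passed, 11 higher and 5 lower (share of all genes under this fit not given). All 5 measured mt-Nd transcripts were lower in Mfn2-/- MEFs at day +8 (median -1.41). Mfn2-/- MEFs carried adipocyte markers at a summed level of 1603 to 1799 at day +8, against 21316 to 42785 in WT, and mesothelial markers at 14372 to 14819 against 254 to 343. Fibroblast markers summed to 84222 to 90218 against 301511 to 339951, epithelial markers to 157 to 225 against 6.65 to 12.1, and the 1 measured endothelial marker stood at 244 to 467 against 0 to 1.9. Their part in these values was not tested.

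**Figure D5:**
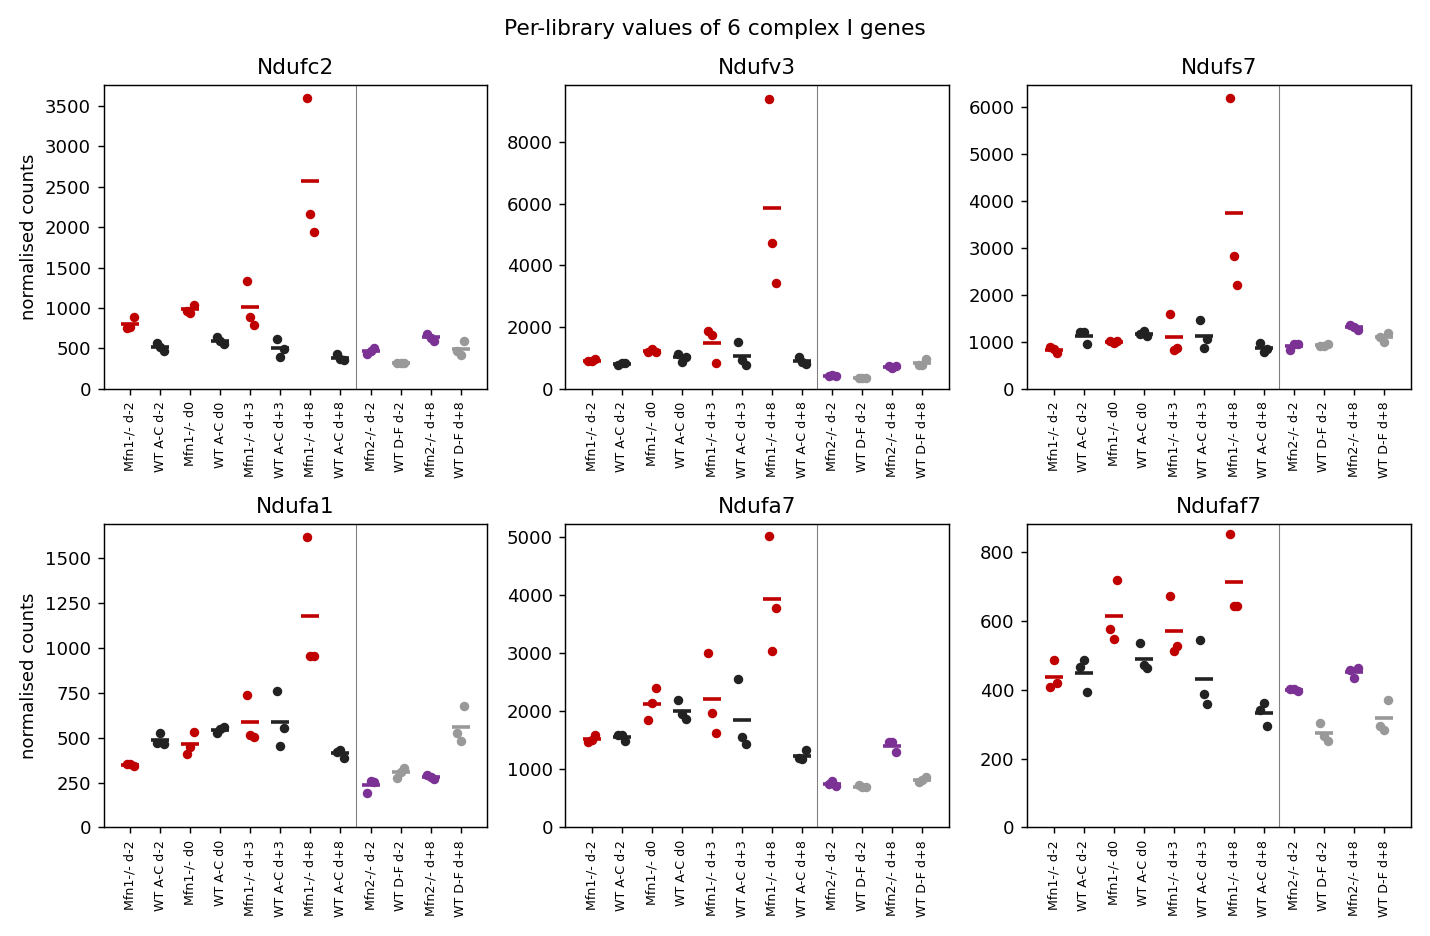
Normalized counts of 6 complex I genes in every library, with each knockout group left of its WT and bars at group means. Mfn1-/- and WT A to C stand left of the line and Mfn2-/- and WT D to F right of it. Ndufc2 lies above WT in Mfn1-/- on each day, Ndufa1 lies below WT in Mfn2-/- at day +8, and library A is the highest of the labelled day +8 libraries in all 6 panels.

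The effects of the lines were compared with each other on each day. At day -2 none of the 47 genes differed in its effect between Mfn1-/- and Mfn2-/- MEFs, against 20.9% of all genes (6 of the 47 at an unadjusted p under 0.05, 0 with edgeR and 0 with DESeq2), while with only the 12 libraries of the day 8 passed (share of all genes under this fit not given). At day +8, 43 had a higher log2 fold change in the labelled Mfn1-/- than in the Mfn2-/- comparison, against 18.9% of all genes: 36 subunits (median over the 37 of 1.72), 5 assembly factors and the other pair. Ndufv3 had the largest difference (2.76 on the log2 scale, standard error 0.36, adjusted p = 2.19e-07), with 733, 685 and 734 in Mfn2-/- MEFs and 779, 763 and 951 in WT D to F. Ndufa1, which rose in the labelled libraries (1619, 957 and 954 against 422, 432 and 386 in WT) and fell in Mfn2-/- MEFs, differed by 2.44 on the log2 scale, standard error 0.25, adjusted p = 3.01e-09. The difference for Ndufa4l2 (2.53 on the log2 scale, standard error 0.77, adjusted p = 0.00708) lost its call under 10 of 19 alternatives (adjusted p up to 0.0285), with 18.5, 15.4 and 13.6 in Mfn2-/- MEFs and 9.5, 15.9 and 10.6 in WT D to F.

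The WT sets were not alike for every complex I gene. On TMM-rescaled values the median difference over the 47 genes, WT libraries D to F minus WT libraries A to C, was 0.0031 on the log2 scale at day -2 and 0.40 at day +8. By gene, 5 of 47 genes differed by more than 1 on the log2 scale between WT libraries D to F and WT libraries A to C, on both day -2 and day +8. At day +8, Ndufs5 (2.36), Ndufab1 (1.89), Ndufb4 (1.65) and Ndufaf8 (1.59) were higher in D to F, and Ndufb2 (-1.43) was lower. Ndufs5, a small accessory subunit, stood at 148, 94.5 and 139.7 rescaled counts in WT D to F, against 22, 21.6 and 27.7 in WT A to C. The deposited tables of the 2 sets may have been scaled apart, and no test was made between them. The annotation (GENCODE vM21) also holds 4 Nduf genes outside the table, which are named as copies of members (Ndufa11b, Ndufab1-ps, Ndufb4c and Ndufs6b), and how reads shared with them were counted is not given in the sources used here, so that values of Ndufa11, Ndufab1, Ndufb4 and Ndufs6 are uncertain to that extent. Apart from the alternative with all 6 WT libraries, each knockout line was compared with the WT libraries scaled with it.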

How the data were processed

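Poly(A) RNA-seq libraries of MEFs were deposited as gene tables in 6 blocks of 6 libraries. The authors trimmed reads (cutadapt), aligned them to GRCm38 (STAR), counted them per gene (featureCounts) and normalized them (DESeq2), with versions not given in the sources used here. The deposited signal values are gene counts that the authors divided by 1 factor per library. Whole reads were recovered from their steps (100% whole within 0.01) and gave total reads of 8800674 to 37011894 per library.

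The 14293 of 14761 genes that reached 10 normalized counts in 3 or more libraries were fitted as log2(value + 1) in 1 model of 12 groups with limma 3.58.1 (trend, robust, R 4.3.3), with Benjamini-Hochberg adjustment over all of them and a threshold of 0.01. Comparisons between lines used the authors' scale, and those between days used TMM factors (edgeR 4.0.16). Alternatives were a pseudocount of 5, no filter, the other scale, fits of fewer or all WT libraries, each library left out, a replicate block, edgeR and DESeq2 1.42.0 on the whole reads, and, chosen after seeing the data, total-read scaling and a fit without the libraries labelled Mfn1-/- at day +8. Same-lettered samples of Mfn1-/- and WT deviated together at day +3 (correlations 0.30, 0.42 and 0.54) and day +8 (0.20, 0.19 and 0.29), not for every pair at day -2 and day 0. Values per library are given for up to 3 rises and 3 falls among members past the threshold in each comparison of lines at day -2 and +8 and in each difference of effects or responses, and for other members chosen, after their values were seen, to show roles. The members and gene lists were chosen with earlier results of these data known. Exon overlaps are from GENCODE vM21 and promoters from RefSeq on GRCm38.p6. The scripts were tested on simulated data. The single values of 1 gene are not reported here.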

Additional observations from a re-analysis of the deposited data

Results flagged for a closer look

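The results below had effects that differed between lines by a test of the difference itself (limma, adjusted p under 0.01). The change between day -2 and day +8 differed between Mfn1-/- and WT MEFs for 46 of the 47 Nduf genes, all with the larger change in Mfn1-/-. Among single genes, the difference in response was 3.77 on the log2 scale for Ndufa4l2, which rests on 5 reads in Mfn1-/- MEFs at day -2, 2.40 for the Q module subunit Ndufs7 and 2.39 for the N module subunit Ndufv3. At day +8, the effect in the libraries labelled Mfn1-/- differed from the effect in Mfn2-/- MEFs for 43 of the 47 genes, all in the same direction. This difference was 2.76 for Ndufv3, 2.53 for Ndufa4l2 and 2.44 for the membrane arm subunit Ndufa1. All of these rest on the day +8 libraries in which Mfn1 RNA was at 99.0% of WT.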

How the results depend on the processing

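The 46 Nduf genes that passed at day +8 in the libraries labelled Mfn1-/- numbered 42 to 46 under every alternative run for that comparison, edgeR and DESeq2 included. Of 317 counts under alternatives, 227 were within 1.5 times the first count and 90 moved further, and of 331 values of single genes 277 kept their call, 54 lost it and 0 reversed. Each group held 3 libraries. The causes of the moves were not tested, save that fits of fewer libraries have fewer degrees of freedom and another estimate of the spread.

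When each comparison was fitted on its own libraries, the knockout counts were 6 in place of 2 (Mfn1-/- at day 0), 0 in place of 5 (Mfn1-/- at day +3), 24 in place of 3 (Mfn2-/- at day -2) and 16 in place of 4 (Mfn2-/- at day +8). Between days they were 25 in place of 5 (Mfn2-/-, day +8 against -2), 25 in place of 7 (WT D to F), 0 in place of 25 (Mfn1-/-, day +3 against 0), 10 in place of 42 (Mfn1-/-, day +8 against +3), 0 in place of 5 (WT A to C, day +3 against 0) and 0 in place of 1 (WT A to C, day +8 against +3). The difference in response in Mfn2-/- gave 11 in place of 0 and the difference of effects at day -2 gave 8 in place of 0. Shares of all genes are not given beside these counts or the other counts under alternatives in this section. Such counts therefore say nothing particular to complex I. On the other scale (TMM between lines, the authors' between days) the counts were 1 in place of 2 (Mfn1-/- at day 0), 1 in place of 25 (Mfn1-/-, day +3 against 0), 1 in place of 0 (Mfn1-/-, day 0 against -2), 0 in place of 5 and 4 in place of 1 (WT A to C, day +3 against 0 and day +8 against +3), and 16 in place of 7 (WT D to F). The authors' scale shifted the median of all genes between days by -0.39 to 0.29.

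With all 6 WT libraries of a day, 8 in place of 4 passed in Mfn1-/- at day -2, 8 in place of 3 in Mfn2-/- at day -2 and 12 in place of 4 in Mfn2-/- at day +8. With the replicate block, 4 in place of 2 passed at day 0, and 2 in place of 5, 0 in place of 1 and 0 in place of 1 in WT A to C (day +3 against 0, day +8 against +3 and day +8 against -2), while 46 passed at day +8 as without the block. The columns of Mfn2-/- do not carry the letters of their WT, so no paired fit was made there. With edgeR, 0 in place of 1 passed in WT A to C (day +8 against -2). With DESeq2, 8 in place of 5 passed in WT A to C (day +3 against 0) and 12 in place of 7 in WT D to F. Of the alternatives chosen after seeing the data, total-read scaling gave 0 in place of 1 in WT A to C (day +8 against -2) and 13 in place of 7 in WT D to F. A fit without the labelled day +8 libraries gave 9 in place of 5 and 6 in place of 2 in Mfn1-/- (day +3 and 0), 7 in place of 3 in Mfn2-/- at day -2, 8 in place of 5 in Mfn2-/- (day +8 against -2), 9 in place of 5 in WT A to C (day +3 against 0) and 11 in place of 7 in WT D to F.

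With 1 library left out, the counts ran from 0 to 2 (Mfn1-/- at day -2), 0 to 1 (day 0), 2 to 7 (day +3) and 45 to 46 (day +8), and from 0 to 2 and 2 to 4 in Mfn2-/- (day -2 and +8). Within lines they ran from 46 to 47 (Mfn1-/-, day +8 against -2), 6 to 29 (day +3 against 0), 34 to 43 (day +8 against +3), 2 to 4 (Mfn2-/-), 2 to 6 (WT D to F), and 0 to 0, 0 to 16 and 0 to 5 in WT A to C (day +8 against -2, day +3 against 0 and day +8 against +3). The differences of response and effect ran from 44 to 46 (Mfn1-/-) and 0 to 0 (Mfn2-/-), and from 0 to 1 (day -2) and 39 to 43 (day +8).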

Other observations

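In Mfn2-/- MEFs at day -2 the subunits and assembly factors stood apart on balance. The median log2 difference from WT was higher over the 37 subunits than over the 8 assembly factors by 0.47, 0.34 and 0.30 in the 3 libraries, although Ndufaf7 and Ndufaf8 were the assembly factors that passed the test and both were higher. At day +8 this margin was -0.04, -0.21 and -0.13 in Mfn2-/- MEFs. It is a description over members and was not tested.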
